A study of Mus musculus with 2 samples.

Results

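Mitochondrial carriers of the Slc25 family were followed in small-intestinal crypts of knockout mice (Lpcat3F/F, Villin-CreERT2) and control mice (Lpcat3 F/F). The genes were those whose single annotated symbol begins with Slc25a, without Slc25a20, plus Ucp2. They came to 43 of the 18193 genes named on the array and were read by 91 of its 45101 probe sets. Ucp2 itself had no probe set naming it here and was not analysed. Where several probe sets read 1 gene, the one with the highest mean log2 signal stands for it.

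The knockout group carried floxed Lpcat3 alleles and a tamoxifen-activated Cre driven by the villin promoter, which is active in intestinal epithelium. The control group carried the floxed alleles alone. All mice, 8 to 10 weeks old, had 5 daily intraperitoneal injections of 1 mg tamoxifen, and gave crypts 2 weeks afterwards. RNA of 5 mice per genotype was pooled and read on 1 Affymetrix array, so genotype, Cre, pool and array cannot be told apart, and no p-value is given. Lpcat3, the phospholipid acyltransferase gene targeted here, had a signal of 928 in the knockout pool and 4691 in the control pool.

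Slc25 proteins form the main family of solute carriers in the mitochondrial inner membrane. They exchange nucleotides, phosphate, carboxylates, amino acids, cofactors and metals between the cytosol and the matrix, so that respiration, amino acid breakdown, haem synthesis and lipid synthesis can draw on both compartments. In the intestinal crypt they serve dividing progenitors as well as the ornithine and citrulline metabolism for which the small-intestinal epithelium is known.

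Most carrier genes differed little between the pools. Signals are MAS5 values in arbitrary units, and a gene counts as measured when at least 1 array reached the floor of 92.9, the 50th percentile of all probe sets. Values below the floor were raised to it, so a gene above it on 1 array alone has a bound. By this criterion 37 of the 43 genes were measured, 35 of them on both arrays. Of the 37, 18 were higher and 19 lower in the knockout pool, against 44.9% of all 11496 measured genes higher. Their median log2 ratio, knockout over control, was -0.0088, and that of all measured genes was -0.042. Different probe sets of the same gene gave log2 ratios that differed with an SD of 0.28 per probe set (1.21-fold, 4582 genes), and 24 of the 37 carriers (64.9%) lay within that error, against 58.0% of all measured genes. Variation among mice or among pools is not part of it.

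A single carrier gene, Slc25a4, was at least 1.5-fold higher (a log2 ratio of 0.58 or more), where 4.76% of all measured genes were. Slc25a53, Slc25a14, Slc25a36 and Slc25a25 were at least 1.5-fold lower, which is 10.8% of the carriers measured beside 8.74% of all measured genes. At 2-fold the carriers gave 0 higher and 0 lower, beside 1.41% and 2.32% of all measured genes. For Slc25a14 only a bound was available, so a drop past 2-fold is possible there: placing the floor at the 30th percentile gave it -2.03. Both shares of carriers past 1.5-fold are near those of all genes, so the counts do not set the family apart. Among the 22 carriers whose brighter array reached the 75th percentile of signals (451), 1 was at least 1.5-fold higher and 1 lower, beside 4.32% and 6.19% of genes of the same brightness. By any amount, 15 of these 22 were higher and 7 lower. The share higher by any amount was not computed for all genes of that brightness, so this split is not read as a trait of the carriers. Those 22 carriers had an SD of 0.33 in log2 ratio, and 7316 genes of the same brightness above the floor on both arrays had an SD of 0.41.

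**Figure D1:**
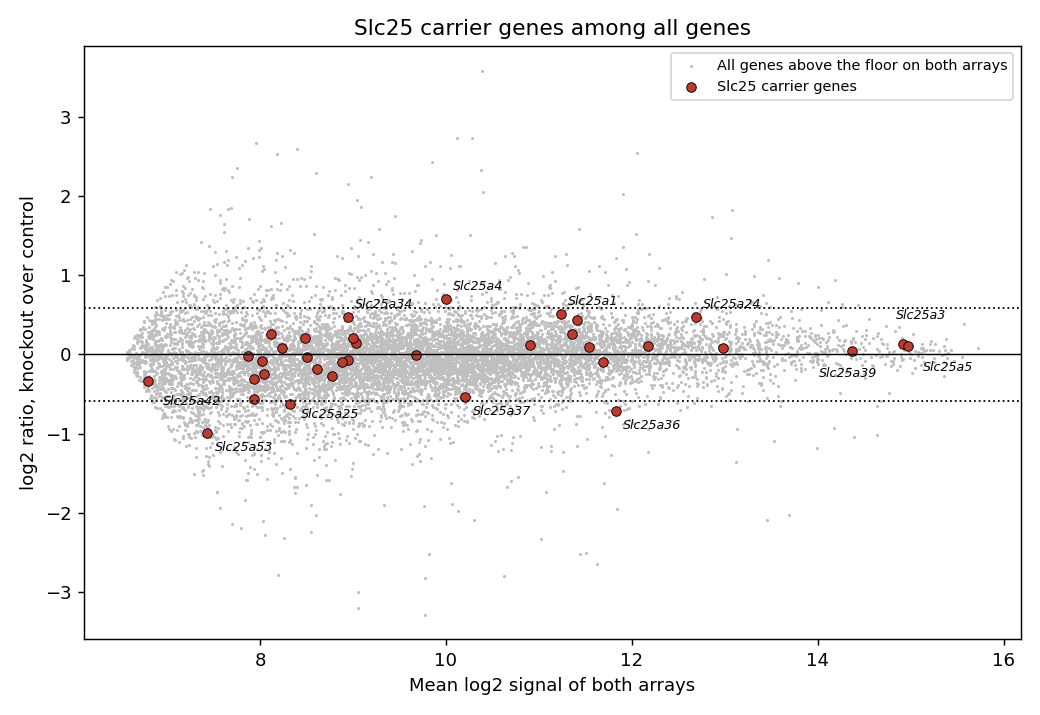
The log2 ratio of signal (knockout over control, vertical axis) is plotted against the mean log2 signal of both arrays (horizontal axis) for genes above the floor on both, with the 35 carrier genes as red points and dotted lines at 1.5-fold. Slc25a4 lies above the upper line, and Slc25a53, Slc25a36 and Slc25a25 lie below the lower line.

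Marker genes of the cell types that crypt preparations can hold were checked on both arrays. The 8 epithelial genes checked (Epcam, Vil1, Krt8, Krt18, Krt20, Cdh1, Olfm4 and Cdx2) were above the floor on both arrays, with a median log2 ratio of 0.083. Among them Olfm4, a marker of the crypt base, had 21348 in the knockout pool and 32027 in the control pool (-0.59), and Krt20 was at 0.44. The 8 villus enterocyte genes measured had a median of 0.15, with Alpi at 0.62 and Lct at -1.36. The knockout pool had lower signals for all 8 T and natural killer cell genes, each by at least 1.5-fold, with a median of -2.10 and a summed signal of 8511 there and 37333 in control. All 6 B and plasma cell genes measured were higher, with a median of 1.12 and a summed signal of 5043 in the knockout pool and 1440 in the control pool. Of 6 macrophage genes 5 were higher, 2 of them by at least 1.5-fold, with a median of 0.32. Csf1r was at a log2 ratio of 2.53 by its brightest probe set, and its other probe sets gave 0.65 and 1.21. C1qa was at least 2.64-fold higher and Lyz2 was at -0.38. The summed signal, to which Lyz2 gave the most, was 3775 in the knockout pool and 3638 in the control pool. Of the 9 stromal, muscle and vessel genes 5 were below the floor on both arrays, Myh11, Tagln, Col1a1, Col3a1 and Pecam1, and the summed signal was 878 in the knockout pool and 921 in the control pool. The part of these cells in the values below was not tested, and in pooled tissue RNA fewer cells of a type and less RNA per cell cannot be told apart.

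**Figure D2:**
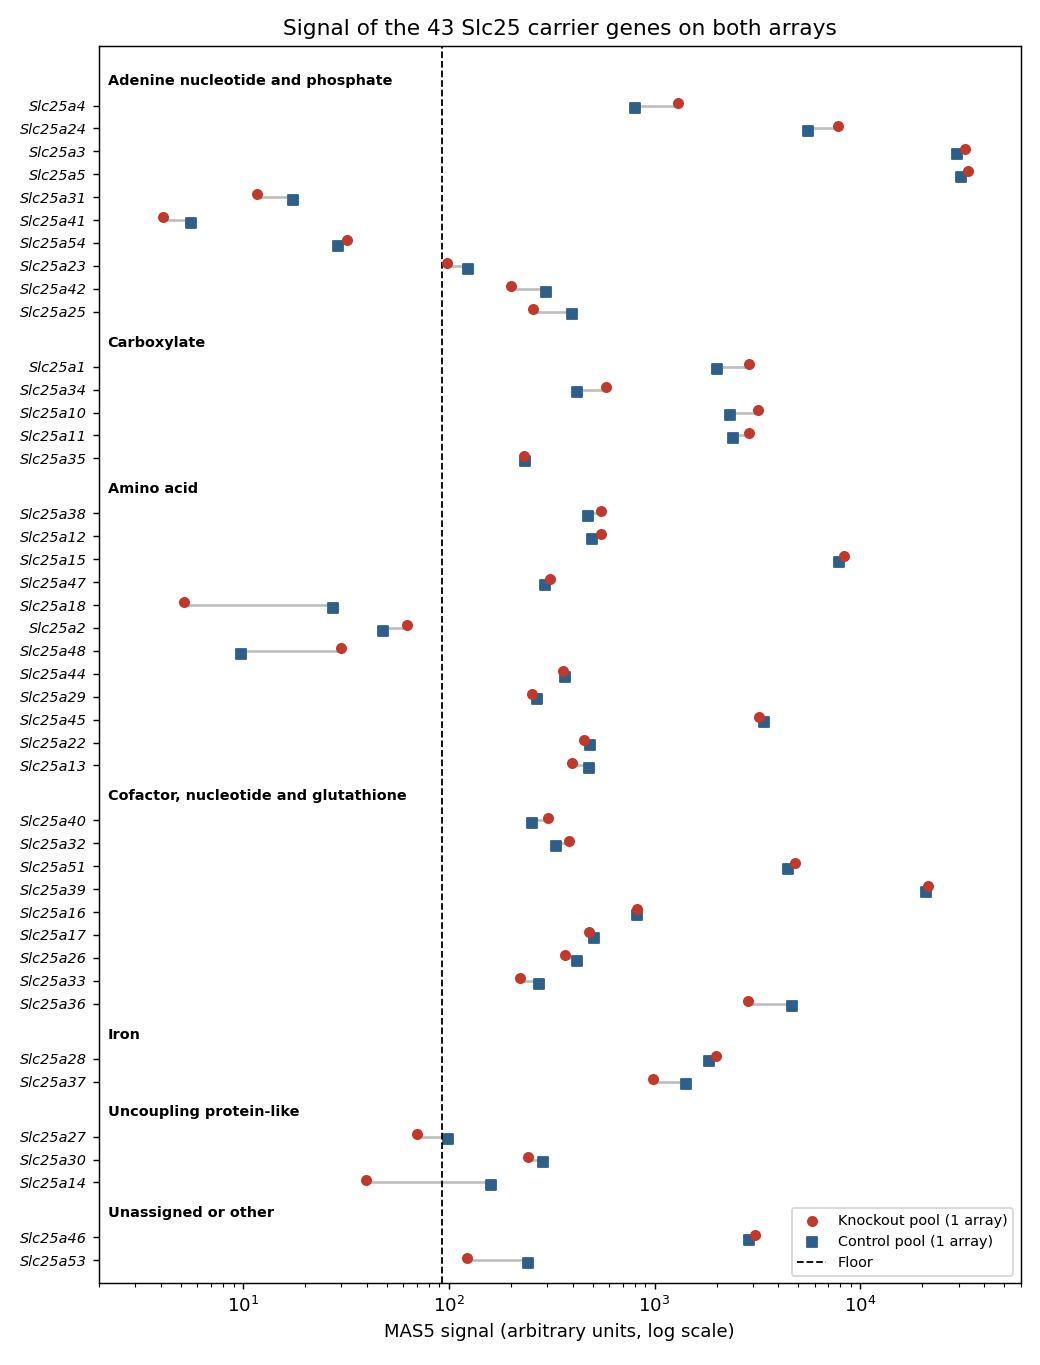
MAS5 signal (horizontal axis, log scale) of each of the 43 carrier genes is shown by its brightest probe set. Genes are grouped by the substrate group assigned to them, or as unassigned. The knockout array is shown as red circles, the control array as blue squares and the floor as a dashed line. Points of 1 gene lie close together for most genes, 6 genes lie left of the floor on both arrays, and Slc25a14 and Slc25a27 cross it.

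Carriers of adenine nucleotides and phosphate supply the matrix with ADP and phosphate and export the ATP that is made there. Of the 10 genes in this group 7 were measured, 4 higher and 3 lower, with a median log2 ratio of 0.11. The ubiquitous ADP/ATP carrier gene of proliferating cells, Slc25a5, had a signal of 33386 in the knockout pool and 30998 in the control pool. All 8 of its probe sets were higher in the knockout pool, but by little, with the brightest at 0.11. Some of these probe sets can bind related sequences, among them the pseudogene Slc25a5-ps that RefSeq lists. Slc25a3, the phosphate carrier gene, had 32237 in the knockout pool and 29512 in the control pool, a log2 ratio of 0.13, which lies within the probe-set error.

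Slc25a4, the ADP/ATP carrier gene best known from heart and skeletal muscle, was the carrier gene with the highest ratio. Its signal was 1307 in the knockout pool and 804 in the control pool, a log2 ratio of 0.70 (1.62-fold higher). Its next probe sets had 1216 in the knockout pool and 665 in the control pool (0.87), and 942 (knockout) and 535 (control) (0.82), while the fourth was below the floor on both arrays. All 3 probe sets above the floor thus gave a higher value in the knockout pool by more than 1.5-fold. A difference carried by the 3 brightest probe sets was uncommon: of 1852 genes whose 3 brightest probe sets passed the floor on each array, 20 (1.08%) were at least 1.5-fold higher by all 3, a count made after the values of Slc25a4 were seen. Probe sets of 1 gene can share target sequence, so they are not independent measurements. Of the stromal, muscle and vessel genes checked, 4 were measured, 2 higher and 2 lower. Acta2 stood at 0.76, with signals of 203 in the knockout pool and 120 in the control pool. Des was at least 1.62-fold lower, with 84.7 in the knockout pool and 150 in the control pool. Col1a2 was at least 1.25-fold higher. Vim was at -0.31, with -0.76 and -0.26 by its other probe sets.

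The remaining measured members of this group exchange ATP-Mg for phosphate or carry coenzyme A. Slc25a24, a calcium-regulated ATP-Mg/phosphate carrier gene, had 7774 in the knockout pool and 5579 in the control pool, a ratio of 0.48, and its second probe set gave 0.31. Slc25a25, another gene of that type, had 257 in the knockout pool and 397 in the control pool by its brightest probe set, a ratio of -0.63. Its other probe sets pointed the opposite way, with 152 in the knockout pool and 120 in the control pool (0.34), and with 118 (knockout) and 101 (control) (0.22). The direction of Slc25a25 therefore depends on the probe set. Slc25a42, a coenzyme A carrier gene, had 201 in the knockout pool and 297 in the control pool (-0.56), just inside 1.5-fold. Slc25a23 was near the floor on both arrays, with 98.4 in the knockout pool and 125 in the control pool. Slc25a31, Slc25a41 and Slc25a54 were below the floor on both arrays, the first of them being known for its expression in male germ cells.

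Slc25a36, a pyrimidine nucleotide carrier gene, was the bright member with the lowest ratio. It had 2842 in the knockout pool and 4666 in the control pool, a log2 ratio of -0.72 (1.64-fold lower). Its other probe sets had 234 in the knockout pool and 365 in the control pool (-0.64), and 123 (knockout) and 291 (control) (-1.24). All 3 were at least 1.5-fold lower, which held for the 3 brightest probe sets of 18 of those 1852 genes (0.972%). Slc25a33, the other pyrimidine nucleotide carrier gene, had 221 in the knockout pool and 273 in the control pool, a ratio of -0.30, by its only probe set. Slc25a4 and Slc25a36 were the members of the family whose 3 brightest probe sets all passed 1.5-fold, out of 7 members that had 3 above the floor on both arrays. These counts too were made after values of the family were seen, and probe sets of 1 gene are not independent, so they are a description only.

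**Figure D3:**
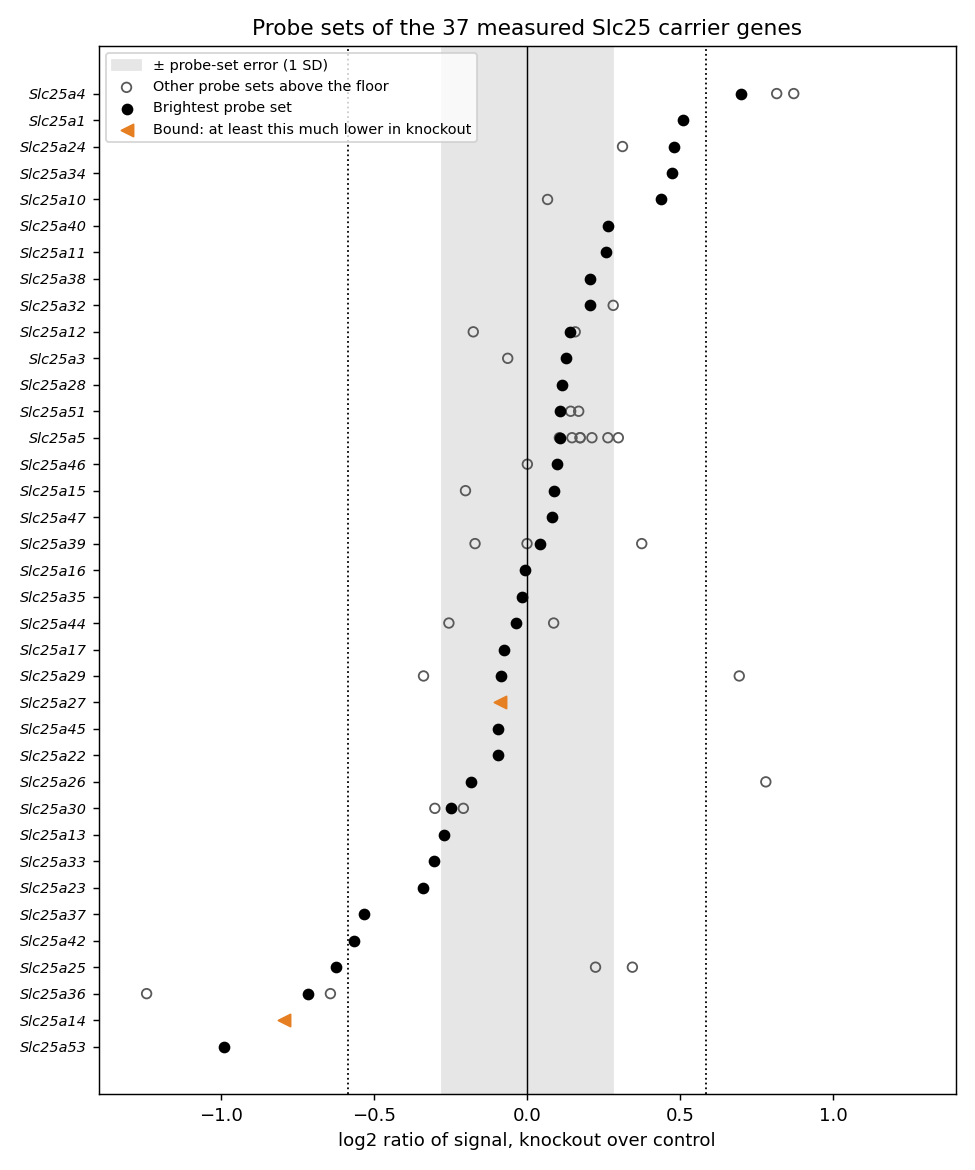
The log2 ratio of signal (knockout over control, horizontal axis) is shown for the 37 measured carrier genes, with the brightest probe set as a filled circle, a bound as an orange triangle, other probe sets above the floor on at least 1 array as open circles, the probe-set error of 0.28 as a grey band and 1.5-fold as dotted lines. The probe sets of Slc25a4 lie together on the right and those of Slc25a36 on the left, while those of Slc25a25 and Slc25a26 lie on both sides of 0.

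Promoter windows of 3 carrier genes are shown because Slc25a4 and Slc25a36 differed by every probe set above the floor, in opposite directions, and because Slc25a25 holds the same cAMP response element (CRE) as Slc25a36. The windows run from 250 bases before a transcription start to 50 bases into the transcript, are RefSeq sequences of GRCm38.p6, and are written 5′ to 3′ on the gene's strand. Capitals mark matches, on either strand, to the CRE (TGACGTCA), the E-box (CACGTG), the GC box (GGGCGG), the CCAAT box (CCAAT), a sterol regulatory element (TCACNCCAC) or an ETS site (CCGGAAG). No matches overlap in these windows.
Slc25a4, chr8:46211013-46211312, minus strand: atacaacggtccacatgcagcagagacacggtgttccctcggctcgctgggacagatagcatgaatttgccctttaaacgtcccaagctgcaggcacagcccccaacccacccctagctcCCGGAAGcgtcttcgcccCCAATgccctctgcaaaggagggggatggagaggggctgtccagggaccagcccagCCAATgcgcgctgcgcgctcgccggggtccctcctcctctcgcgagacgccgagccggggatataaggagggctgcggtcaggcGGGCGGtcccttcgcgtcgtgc
Slc25a36, chr9:97110992-97111291, minus strand: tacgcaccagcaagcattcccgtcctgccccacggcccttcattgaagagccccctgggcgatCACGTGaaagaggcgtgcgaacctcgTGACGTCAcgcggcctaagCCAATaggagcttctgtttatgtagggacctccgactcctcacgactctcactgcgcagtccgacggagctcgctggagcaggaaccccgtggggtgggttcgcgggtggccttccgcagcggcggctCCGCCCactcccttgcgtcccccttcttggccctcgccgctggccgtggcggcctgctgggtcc
Slc25a25, chr2:32424017-32424316, minus strand: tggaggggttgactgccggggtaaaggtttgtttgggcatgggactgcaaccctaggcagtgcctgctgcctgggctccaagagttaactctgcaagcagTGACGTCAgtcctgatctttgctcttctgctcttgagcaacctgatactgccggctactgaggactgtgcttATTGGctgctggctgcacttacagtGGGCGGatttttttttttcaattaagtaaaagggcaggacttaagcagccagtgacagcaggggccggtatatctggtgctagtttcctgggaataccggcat

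The Slc25a36 window holds 1 CRE and 1 E-box, 161 and 187 bases before the start, and the Slc25a4 window holds neither. Slc25a25 has 3 annotated starts, and the CRE, 150 bases before the start, lies in the window printed. Of all 32851 promoter windows, which include those of non-coding genes, 1.79% hold a CRE, 7.15% an E-box, 35.7% a GC box, 37.4% a CCAAT box and 8.86% an ETS site. Of 42 windows of 33 carrier genes, 2 hold a CRE, 8 an E-box, 36 a GC box, 21 a CCAAT box and 6 an ETS site. The sterol regulatory element occurs in 1.24% of all windows and in 1 of the 42, that of Slc25a18. A match is a run of letters and was not tied to any factor here.

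Carboxylate carriers move citrate, malate and related acids, and link the tricarboxylic acid cycle to cytosolic synthesis of fatty acids and sterols. All 5 genes placed in this group that were named on the array were measured. Of these, 4 were higher in the knockout pool, beside 44.9% of all measured genes. Genes of like brightness were not compared, and 15 of the 22 bright carriers of all groups were higher. The group was chosen with earlier results of these data known. None passed 1.5-fold, and the median log2 ratio was 0.44. With 5 genes, this median is the ratio of Slc25a10 alone, so it depends on the choice of probe set for that gene. The placement of genes in the group came from textbook knowledge, and for Slc25a34 and Slc25a35 it is an assumption. Transport was not measured. Slc25a1, the citrate carrier gene, had 2869 in the knockout pool and 2018 in the control pool, a ratio of 0.51 (1.42-fold) by its only probe set. Acly, whose enzyme cleaves the exported citrate to acetyl-CoA, had 2896 in the knockout pool and 2615 in the control pool, a ratio of 0.15. Slc25a10, the dicarboxylate carrier gene, had 3166 in the knockout pool and 2338 in the control pool (0.44), but its second probe set gave 0.066. Slc25a11, the oxoglutarate carrier gene of the malate-aspartate shuttle, had 2871 in the knockout pool and 2401 in the control pool (0.26). Slc25a34 had 582 in the knockout pool and 419 in the control pool (0.47), and its close relative Slc25a35 had 233 in the knockout pool and 235 in the control pool (-0.016). The higher values of Slc25a1, Slc25a10 and Slc25a34 exceed the probe-set error of 0.28, and that of Slc25a11 does not. Only 58.0% of all measured genes lay within that error, so exceeding it does not set a gene apart. Slc25a34, like Slc25a1, was read by 1 probe set.

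By their brightest probe sets, the amino acid carriers measured lay within 1.5-fold. Of 12 genes 9 were measured, with ratios from -0.27 to 0.20 and a median of -0.036. Slc25a15, the ornithine carrier gene of the urea cycle and of citrulline synthesis, had 8338 in the knockout pool and 7856 in the control pool (0.086), and its second probe set gave -0.20. By their brightest probe sets, the enzyme genes checked beside it had ratios below 0, where 44.9% of all measured genes were higher. Oat, for ornithine aminotransferase, had 13403 in the knockout pool and 25554 in the control pool, a ratio of -0.93 by its only probe set. Otc, for ornithine transcarbamylase, had a ratio of -0.27, with -0.34 and 0.15 by its other probe sets. Cps1, for carbamoyl phosphate synthetase, was at -0.15, and Arg2, for mitochondrial arginase, at -0.081. By their brightest probe sets Otc, Cps1 and Arg2 lay within the probe-set error. The carrier of the pathway thus lay within the probe-set error while Oat was 1.91-fold lower.

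The aspartate-glutamate carrier genes of the malate-aspartate shuttle lay within the probe-set error. Slc25a12 (aralar) had 548 in the knockout pool and 497 in the control pool (0.14), with -0.18 by a dimmer probe set, and Slc25a13 (citrin) had 397 in the knockout pool and 480 in the control pool (-0.27). Among the shuttle's enzymes, Got1 had 2051 in the knockout pool and 1387 in the control pool (0.56), while Got2, Mdh1 and Mdh2 had ratios of 0.20, 0.16 and 0.14. Slc25a22, a glutamate carrier gene, was at -0.095, and Slc25a29, for basic amino acids, at -0.086. One probe set of Slc25a29 was at least 1.62-fold higher, with 150 in the knockout pool and 74.8 in the control pool, and its second brightest stood at -0.34.

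Slc25a38, the glycine carrier gene that feeds haem synthesis, had 548 in the knockout pool and 476 in the control pool (0.20), and Alas1, the first enzyme gene of that pathway, was at 0.32. Slc25a44, a carrier gene for branched-chain amino acids, had 360 in the knockout pool and 369 in the control pool (-0.036). The genes for both subunits of the branched-chain ketoacid dehydrogenase were lower: Bckdha had 425 in the knockout pool and 690 in the control pool (-0.70), and Bckdhb had a ratio of -0.46, each by 1 probe set. Slc25a45 was at -0.095 with signals of 3200 in the knockout pool and 3418 in the control pool, and Slc25a47 was at 0.081. Slc25a2, Slc25a18 and Slc25a48 were below the floor on both arrays.

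Carriers of cofactors, nucleotides and glutathione comprised 9 genes, all measured, with a median of -0.0088 and Slc25a36 as the member past 1.5-fold. Slc25a39, a glutathione carrier gene, had 21357 in the knockout pool and 20769 in the control pool (0.040), and its other probe sets above the floor ranged from -0.17 to 0.37. Its relative Slc25a40 had 303 in the knockout pool and 253 in the control pool (0.26). Gclc, for the catalytic subunit of the enzyme that begins glutathione synthesis, had 2643 in the knockout pool and 1640 in the control pool (0.69), although its second probe set gave 0.20. Gclm, for the regulatory subunit, was at 0.10. Slc25a51, a carrier gene for NAD, had 4787 in the knockout pool and 4443 in the control pool, and its 3 probe sets gave 0.11, 0.14 and 0.17. Slc25a32, a folate carrier gene, had 383 in the knockout pool and 332 in the control pool (0.20), beside 0.46 for Shmt2 and 0.22 for Mthfd2, enzyme genes of mitochondrial folate metabolism.

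Slc25a26, the S-adenosylmethionine carrier gene, gave opposite readings. Its brightest probe set had 368 in the knockout pool and 419 in the control pool (-0.18), and its second had 244 in the knockout pool and 142 in the control pool (0.78). These readings lie on opposite sides of 0, and the second is past 1.5-fold, so no direction is given for Slc25a26. Slc25a16 had 818 in the knockout pool and 823 in the control pool, and Slc25a17, whose carrier sits in the peroxisome, was at -0.076. Both lay within the probe-set error.

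The mitoferrin genes, whose carriers bring iron into the matrix for haem and iron-sulfur clusters, differed from each other. Slc25a37 (mitoferrin 1) had 984 in the knockout pool and 1425 in the control pool, a ratio of -0.53 (1.45-fold lower), by its only probe set with 1 gene symbol. A further probe set shared with Gm16867 was below the floor on both arrays. Slc25a28 (mitoferrin 2) had 1997 in the knockout pool and 1845 in the control pool, a ratio of 0.11. Of the genes that use matrix iron, Fech, for ferrochelatase, was at -0.060, Nfs1 at -0.018 and Iscu at 0.32. Slc25a37 is known for its high level in developing red cells, but no erythroid marker list was examined.

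Of the 3 measured genes related to uncoupling proteins, Slc25a14 was past 1.5-fold, while Slc25a30 lay within the probe-set error by its brightest probe set and Slc25a27 had only a bound inside it. Slc25a14 had 39.5 in the knockout pool and 161 in the control pool, so it was at least 1.74-fold lower by its only probe set. Slc25a27 had 70.3 in the knockout pool and 98.8 in the control pool, at least 1.06-fold lower, with its other probe sets below the floor. Slc25a30 had 242 in the knockout pool and 288 in the control pool (-0.25), and its second probe set gave -0.30. Slc25a53, which has no settled substrate, had 123 in the knockout pool and 244 in the control pool, a ratio of -0.99 (1.99-fold lower), the lowest among carriers above the floor on both arrays, and its other probe set was below the floor on both arrays. Slc25a46, whose protein lies in the outer membrane and takes part in mitochondrial fission, had 3076 in the knockout pool and 2877 in the control pool (0.096), and its second probe set had 1303 on both arrays. Of the 4 genes at least 1.5-fold lower, Slc25a36 was thus the only one with a signal above 451 on either array.

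Carrier proteins reach the inner membrane through the receptor Tomm70, small chaperones of the intermembrane space and the Tim22 complex. Of 16 genes of this import route 14 were measured, 12 of them higher in the knockout pool, beside 44.9% of all measured genes higher. The median log2 ratio was 0.31, against -0.042 for all measured genes. The list was chosen with earlier results of these data known, and genes of like brightness were not compared. The gene past 1.5-fold was Timm22, for the channel that inserts carriers, with 2106 in the knockout pool and 1102 in the control pool (0.93), but its second probe set had 147 in the knockout pool and 144 in the control pool (0.022). The small chaperone gene Timm13 had 5475 in the knockout pool and 3904 in the control pool (0.49), while Timm8a1 was at 0.13. Tomm7, for a subunit of the outer-membrane pore, was at 0.26, but its next probe sets gave -0.026 and -0.14. Tomm20 had 24675 in the knockout pool and 20940 in the control pool (0.24), and its probe sets ranged from -0.42 to 0.51. Tomm70a was at -0.13 and Timm29 at -0.11 by their brightest probe sets. Further probe sets above the floor gave 0.42, 0.088 and -0.49 for Tomm70a and 0.12 for Timm29. The counts of higher and lower genes in this list thus depend on the choice of probe set.

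Transporters of other families and the relatives left out of the choice of genes showed no common direction. Of 15 measured genes for pyruvate, sideroflexin, calcium, ABC and porin transporters, 9 were higher and 6 lower, beside 44.9% of all measured genes higher. Their median was 0.12. The outer-membrane porin genes Vdac1, Vdac2 and Vdac3 had ratios of -0.21, 0.27 and -0.062, and Mpc1, for the pyruvate carrier, 0.12. Sfxn3, a sideroflexin gene, had 96.8 in the knockout pool and 164 in the control pool (-0.76). Slc25a20, the carnitine-acylcarnitine carrier gene, had 6166 in the knockout pool and 6023 in the control pool (0.034). The divergent family genes Mtch1 and Mtch2 were at -0.34 and 0.068.

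Regulators of mitochondrial biogenesis numbered 10, of which 3 were higher and 7 lower, beside 44.9% of all measured genes higher. Their median was -0.18 and none was past 1.5-fold. Tfam, for the mitochondrial DNA packaging factor, had 3037 in the knockout pool and 4276 in the control pool (-0.49), with -0.16 by its second probe set, and Tfb2m, for a mitochondrial transcription factor, was at -0.51. Gabpa, for a transcription factor that acts on nuclear genes of respiration, was at -0.21, but its second probe set had 417 in the knockout pool and 261 in the control pool (0.67). The coactivator gene Ppargc1b was at 0.37 and Ppargc1a at -0.17, with probe sets of Ppargc1a from -0.56 to 0.14. The 22 measured enzyme genes that work beside carriers had a median of 0.13, with 1 (Gclc) at least 1.5-fold higher and 2 (Oat and Bckdha) at least 1.5-fold lower, shares near the 4.76% and 8.74% of all measured genes.

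**Figure D4:**
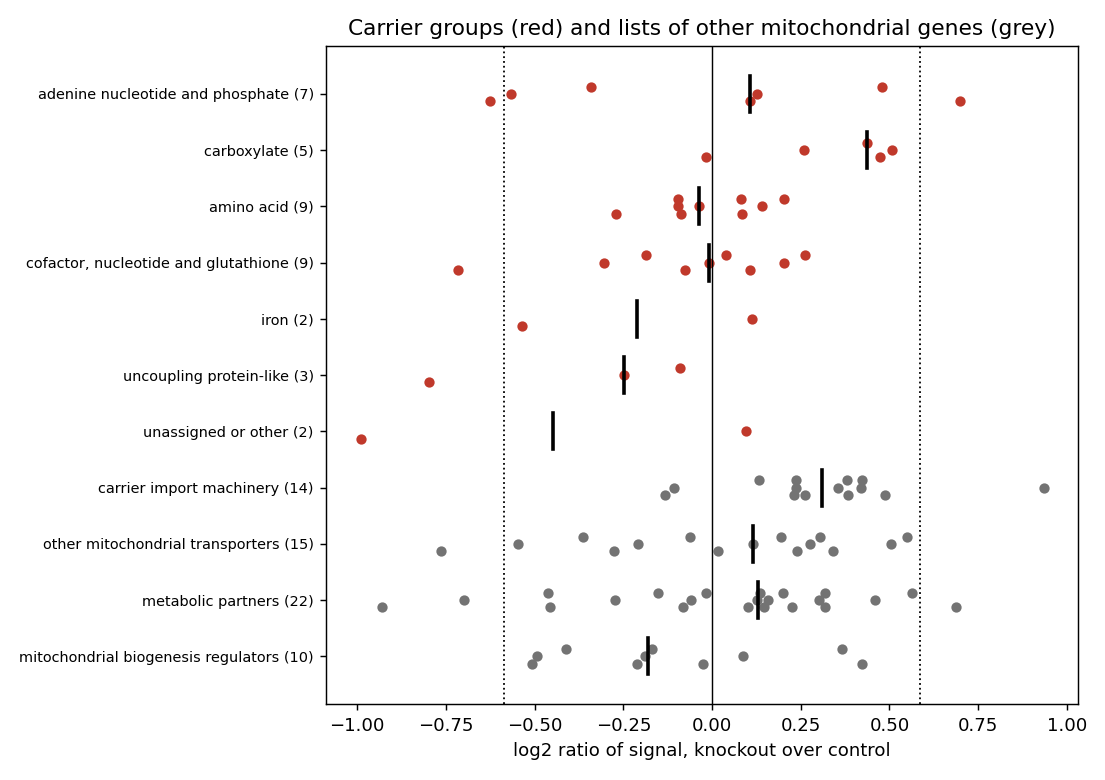
Each point is the log2 ratio of 1 measured gene (knockout over control, horizontal axis), in red for the groups of carriers and in grey for other mitochondrial lists, with the number of genes in brackets, a black bar at the median and dotted lines at 1.5-fold. By the brightest probe sets, the medians of the carboxylate carriers (0.44) and of the import route (0.31) lie to the right. The first is the ratio of Slc25a10, whose second probe set gave 0.066. Of the 37 carriers, 32 lie between the dotted lines.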

How the data were processed

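Total RNA of crypts, extracted with Trizol per the labels' protocols, was pooled from 5 mice per genotype and read on 1 Affymetrix array each. The deposited values are linear MAS5 signal intensities per probe set, per the submitters' processing notes. Version, options and detection calls were not given in the sources used here. A trimmed mean (2% cut from each end) was 500.003 on both arrays, so the values were used as deposited. The submitters' design text names a smaller array version than the 45101 probe sets show.

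After 64 control probe sets were set aside, 34945 probe sets had 1 gene symbol, 932 several and 9160 none here. Current symbols came by Entrez identifier from the RefSeq table of GRCm38.p6, which changed 0 carrier symbols. Signals below the 50th percentile (92.9) were raised to it before log2 ratios were taken, and the brightest probe set stands for a gene. Computation used Python 3.11.15 with pandas 2.3.3 and was tested on simulated data. Intensities of different probe sets are not comparable as levels, and the number of arrays, 1 per group, limits the precision. All carriers could be named, with signals for those past 1.5-fold and the 5 brightest, and the substrate groups and other lists were written from textbook knowledge. Genes and lists were chosen with earlier results of these data known, and the signals of further members and partner genes were added after their values were seen. Alternatives were quantile, lowess and median scaling, floors at the 30th and 70th percentiles, a pseudocount, other choices of probe set, and symbols without the update.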

Additional observations from a re-analysis of the deposited data

How the results depend on the processing

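No paired analysis was possible because there was 1 array per genotype, and leaving out an array would leave no comparison. Over the 10 alternative settings the median of the carriers stayed between -0.016 and 0.10, and that of all measured genes between -0.051 and 0.017. The count of carriers at least 1.5-fold higher was 2 in place of 1 without _s_at and _x_at probe sets and with the second brightest probe set, since Slc25a26 then stood at 0.78. The count at least 1.5-fold lower was 1 in place of 4 with the floor at the 70th percentile, by which fewer genes are measured, and 3 or 4 under the other settings. Slc25a4 stayed between 0.64 and 0.87 and Slc25a36 between -0.87 and -0.64, whereas Slc25a25 was at 0.34 with its second brightest probe set and at -0.020 by the mean of its probe sets. Slc25a14 was at -2.03 with the floor at the 30th percentile. Slc25a53 was at -0.64 with the pseudocount and had no value at the 70th percentile. Of 358 recomputed carrier ratios, 346 moved by less than the probe-set error, but many of them could not move. The symbol update changed 0 carrier symbols, and a changed floor leaves ratios of genes above it as they were. For the 21 carriers with 1 probe set, another choice of probe set gives the same value or none. The count is therefore not a measure of how stable the ratios are. Signals near the floor limit what can be said of Slc25a14, Slc25a23, Slc25a27 and Slc25a53.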

Other observations

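Some neighbouring carrier genes differed in whether they were measured. On chromosome 3 Slc25a24 lies beside Slc25a54, and on chromosome 17 Slc25a23 lies beside Slc25a41. In both pairs the first gene was above the floor on both arrays and the second was below it on both, although Slc25a23 was near the floor. Slc25a29 and Slc25a47, neighbours on chromosome 12, were both above the floor on both arrays. Order among protein-coding genes was taken from RefSeq's GRCm38.p6.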
